A study of Lemna aequinoctialis with 6 samples.

Results

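Transcripts of 16 genes of the photosystems and of the thylakoid, the membrane of the chloroplast in which light energy is captured, were followed in Lemna aequinoctialis, a small floating duckweed. The genes were selected on measured values: they are those of 28620 assembled genes that had at least 1 transcript in the authors' deposited table of transcripts changed by treatment, under a description naming a photosystem subunit, an oxygen-evolving protein, plastocyanin, a ferredoxin--NADP reductase, the iron-sulfur subunit of the b6-f complex, PsbP, PsbQ or the thylakoid. Chlorophyll a-b binding antenna proteins and the reaction centre proteins encoded in the plastid were left out. The selection held 25 transcripts, of which 23 were listed as higher and 2 as lower in treated plants. Because the treatment contrast itself chose these transcripts, their differences between the groups are descriptions, and no test of them is offered as evidence.

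The study compared 3 control samples with 3 samples of plants treated with indole-3-propionic acid (IPA), an indole compound with a carboxylic acid side chain, in an investigation of growth and metabolite yield. RNA came from powdered plant material, and the library kit was TruSeq Stranded mRNA. Dose, duration, age and strain are not stated in the labels. The labels also do not say that replicates came from separate cultures, so any p-value here reflects sample-to-sample spread that could be purely technical. Libraries held 30149649 to 45233584 reads, and the features were assembled transcripts with Trinity names (Trinity builds transcripts from reads without a genome).

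As background, light-driven electron transport in oxygenic plants runs from photosystem II, which oxidises water at its lumenal side, through the cytochrome b6-f complex and the carrier plastocyanin to photosystem I, which reduces ferredoxin. The pigment-binding cores of both photosystems are translated in the plastid, whereas most of the small subunits around them are made from nuclear genes and imported. Of the 25 descriptions, 24 carried the word chloroplastic; the location of the genes in a genome was not analysed here, and their nuclear origin is textbook knowledge of plants in general. The label of the set as electron transport subunits was only partly borne out. The wordings for plastocyanin, the reductase and the b6-f subunit matched 0 listed transcripts each. Those for PsbP and PsbQ, which are photosystem II proteins, also matched 0. PsbQ was nevertheless in the set, described as oxygen-evolving enhancer protein 3-2. Photosystem I supplied 7 genes with 14 transcripts, the extrinsic proteins of water oxidation 3 genes with 3, other photosystem II proteins 2 genes with 4, and other thylakoid proteins, which are not photosystem subunits, 4 genes with 4.

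Levels are normalised read counts, which the authors scaled per library, summed where stated over all transcripts of a gene. They are not divided by transcript length, so they are compared between libraries and never between genes. Changes are log2 of IPA over control on the log2(value + 0.5) scale, with the SE of limma's fit over all features. A feature was counted as called when its limma false discovery rate (FDR), with Benjamini-Hochberg adjustment over all features tested, was below 0.05. In bulk plant RNA, a higher level in each chloroplast-bearing cell and a larger share of such cells cannot be told apart.

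**Figure D1:**
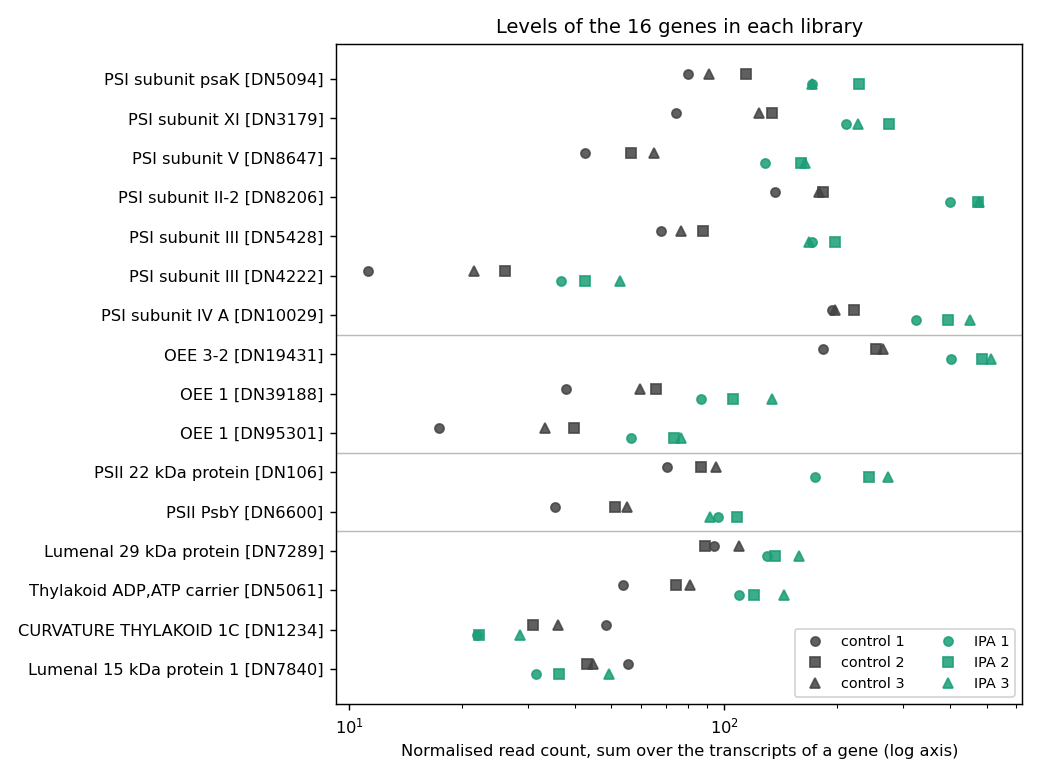
Normalised read count on a log axis, summed over the transcripts of each of the 16 genes, for every library (points; grey, control; green, IPA; symbols, replicate numbers). OEE is oxygen-evolving enhancer protein, PSI and PSII are photosystems I and II, and lines separate the role groups. In the upper 14 genes every IPA library lies to the right of every control library (16.6% of all transcripts tested), and in the lowest gene the groups overlap.

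Photosystem I subunits stood higher in IPA in all 7 genes, and every IPA library exceeded every control library in each of them. The same held for 16.6% of all transcripts tested, and these genes were chosen by this contrast. Subunit II (PsaD, TRINITY_DN8206_c0_g1), which sits on the stromal side and helps ferredoxin dock, had gene sums of 136, 183 and 178 in control 1, 2 and 3 and of 400.0, 474 and 477 in IPA 1, 2 and 3. The means were 166 ± 25.9 and 450.4 ± 43.7 (SD, n = 3 per group), a log2 change of 1.45 ± 0.18. Control 1 and IPA 1 were the lowest of their groups, and the groups did not overlap. All 6 transcripts of this gene were in the selection, and their means were nearly equal, 26.6 to 28.5 in control and 73.3 to 77.8 in IPA. Transcripts of 1 gene may share reads, so these 6 are not independent observations.

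Subunit V (PsaG, TRINITY_DN8647_c1_g1), a membrane subunit at the antenna side of photosystem I, had the largest change of the 16 gene sums. Its single transcript stood at 42.6, 56.4 and 64.8 in control and at 128, 160 and 164 in IPA, with means of 54.6 ± 11.2 and 151 ± 19.8 and a log2 change of 1.47 ± 0.19. PsaK (TRINITY_DN5094_c0_g3), the other membrane subunit of that kind, stood at 80.0, 114 and 90.8 in control and at 171, 229 and 172 in IPA. Its log2 change was 1.00 ± 0.19, and IPA 2 stood apart from the other treated libraries, which were nearly equal.

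Subunit XI (PsaL, TRINITY_DN3179_c0_g1), which takes part in the docking of light-harvesting complex II to photosystem I, was represented by a transcript at 38.8, 81.4 and 76.0 in control and 137, 183 and 153 in IPA. Control 1 held less than the other control libraries, and the control values spread more than in most of these genes. The gene sums were 111 ± 31.9 and 237 ± 33.3 (log2 1.13 ± 0.23). The selected transcript held 59.1% of the gene's counts in control and 66.5% in IPA.

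Subunit III (PsaF), which binds the lumenal electron donor plastocyanin, was found as a pair of assembled genes. TRINITY_DN5428_c1_g1, with 3 transcripts that were all selected, had gene sums of 67.9, 87.7 and 76.7 in control and 171, 197 and 168 in IPA (log2 1.21 ± 0.16). Its representative, the transcript with the highest mean over the 6 libraries, was the steadiest member in control, at 32.0, 31.5 and 32.0, against 63.1, 73.8 and 61.1 in IPA. TRINITY_DN4222_c0_g2 had means of 19.6 ± 7.62 in control and 43.96 ± 8.04 in IPA (log2 1.21 ± 0.29). The pair had nearly the same change and differed in spread, since control 1 of the second gene was at 11.2 against 26.1 in control 2.

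Subunit IV A (PsaE, TRINITY_DN10029_c0_g1), a stromal subunit close to PsaD, had the smallest change of the 7. Its gene sum went from 204 ± 15.3 to 390 ± 63.6 (log2 0.92 ± 0.17). The selected transcript held only 8.13% of the gene's counts in control and 9.17% in IPA. The 3 other transcripts of the gene, outside the selection, had log2 changes of 0.82 to 0.97. Across the 7 photosystem I genes, log2 changes of gene sums spanned 0.92 to 1.47, with SEs of 0.16 to 0.29. Differences between these genes were not tested. The SEs of single genes, from the same libraries, do not measure the error of such a difference.

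The extrinsic proteins that stabilise the manganese cluster of water oxidation were higher in all 3 genes. Oxygen-evolving enhancer protein 3-2 (PsbQ, TRINITY_DN19431_c0_g2) stood at 183, 253 and 264 in control and at 403, 487 and 514 in IPA, with means of 233 ± 44.1 and 468 ± 58.2 (log2 1.01 ± 0.19). Oxygen-evolving enhancer protein 1 (PsbO), the subunit nearest the cluster, was again a pair of genes. In TRINITY_DN39188_c0_g1 it stood at 37.8, 65.6 and 59.5 in control and at 86.6, 105 and 134 in IPA (log2 1.01 ± 0.24). The second, TRINITY_DN95301_c0_g1, described as a fragment, stood at 17.3, 39.9 and 33.3 in control and at 56.4, 73.3 and 76.6 in IPA (log2 1.25 ± 0.28). Control 1 was the lowest library in all 3 genes, most clearly in the fragment. No control library reached an IPA library, as in 16.6% of all transcripts tested.

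Other photosystem II proteins were PsbS and PsbY. The 22 kDa protein PsbS (TRINITY_DN106_c0_g1), which senses lumen acidity and switches on the dissipation of excess light energy as heat, had gene sums of 70.1, 86.4 and 94.9 in control and 174, 243 and 272 in IPA (log2 1.44 ± 0.20). Its representative transcript stood at 39.8, 50.9 and 59.3 in control and at 111, 156 and 167 in IPA. The least abundant of its 3 selected transcripts had the largest change of the 25, from 2.63 ± 1.05 to 10.01 ± 3.03 (log2 1.77 ± 0.30), and held 3.14% of the gene's counts in control. PsbY (TRINITY_DN6600_c0_g1), a small membrane protein of photosystem II, stood at 35.5, 50.95 and 55.1 in control and at 95.9, 108 and 91.7 in IPA (log2 1.08 ± 0.19).

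The 4 thylakoid proteins that are not photosystem subunits did not move as a block. Their selected transcripts each held 5.60 to 16.4% of the counts of their gene in control. Protein CURVATURE THYLAKOID 1C (TRINITY_DN1234_c0_g1), of a family that bends the membrane at the margins of grana stacks, had a selected transcript at 8.93, 5.25 and 4.78 in control and at 3.27, 3.13 and 2.89 in IPA (log2 -0.87 ± 0.24). That transcript held 16.4% of the gene's counts in control. The gene sum was 48.3, 30.9 and 36.0 in control and 21.9, 22.2 and 28.5 in IPA, lower in every IPA library but not called (log2 -0.64 ± 0.20). Of all transcripts tested, 16.3% had every IPA library below every control library.

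Thylakoid lumenal 15 kDa protein 1 (TRINITY_DN7840_c0_g1) had a selected transcript at 7.97, 4.83 and 4.598 in control and at 2.73, 2.93 and 2.82 in IPA (log2 -0.88 ± 0.22). It held 12.2% of the gene's counts in control and 7.24% in IPA. The gene sum overlapped between groups, at 55.3, 43.1 and 44.6 in control and 31.5, 36.2 and 49.3 in IPA (log2 -0.30 ± 0.20, not called). The most abundant transcript of the gene, outside the selection, was at 14.5 ± 1.81 and 14.3 ± 2.87. In both genes with a lower transcript control 1 held the highest control value. With library totals in place of the authors' scaling, neither selected transcript was called and both stayed lower (log2 -0.60 and -0.61). Neither was called without control 2, IPA 1, IPA 2 or IPA 3, where log2 changes were -0.83 to -0.98, and that of CURVATURE THYLAKOID 1C was also not called without control 1 (log2 -0.62). With a replicate block neither was called (limma FDR 0.0616 and 0.0664).

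The lumenal 29 kDa protein (TRINITY_DN7289_c0_g1), an ascorbate peroxidase-like protein of the lumen, had a selected transcript at 3.86, 5.28 and 7.25 in control and at 11.9, 10.1 and 14.9 in IPA (log2 1.12 ± 0.24). This transcript was 5.61% of the gene in control and 8.70% in IPA. The gene sum was 94.0, 88.9 and 109.5 in control and 130, 136 and 158 in IPA, higher without overlap but not called (log2 0.53 ± 0.16). Of all transcripts tested, 16.6% were higher without overlap. The thylakoid ADP,ATP carrier (TRINITY_DN5061_c0_g1), named for nucleotide exchange across the membrane, had a selected transcript at 3.38, 3.78 and 4.51 in control and at 7.44, 7.27 and 8.82 in IPA (log2 0.93 ± 0.19). Its gene sum rose from 69.5 ± 14.2 to 124 ± 17.8 (log2 0.85 ± 0.19). Of its 20 transcripts, 1 was listed under another description, DNA damage-binding protein 2, so the sum over this assembled gene is uncertain.

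**Figure D2:**
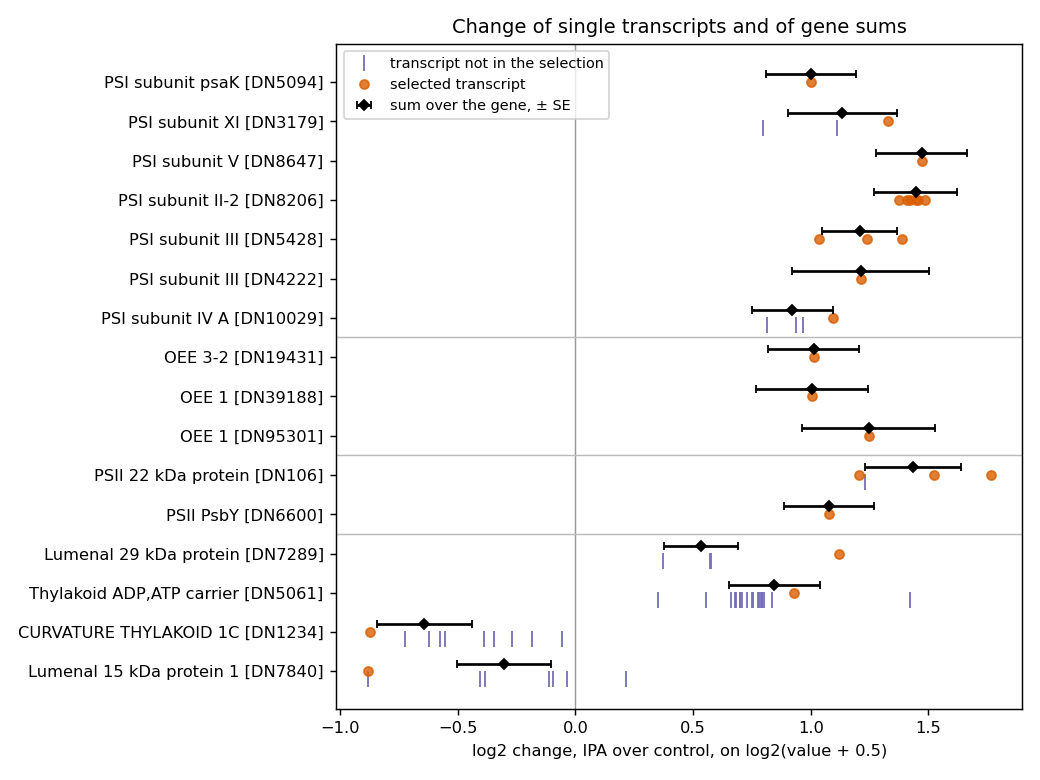
log2 change of IPA over control on the log2(value + 0.5) scale for selected transcripts (orange points), other transcripts of the same genes (purple ticks) and gene sums (black diamonds with SE, 3 libraries per group). Gene sums of photosystem subunits lie between 0.92 and 1.47. In the 4 other thylakoid proteins each selected transcript lies farther from 0 than its gene sum. These transcripts were selected for their change, and the differences were not tested.

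All 25 selected transcripts were called by limma, 23 as risen and 2 as fallen; over all 78722 transcripts tested, 4.49% were called as risen and 3.87% as fallen. In the authors' list itself, the rule that chose the members, 3.16% of the 81787 deposited transcripts were higher and 3.07% lower. The median log2 change was 1.24 over the 25 and 0.02 over all transcripts tested. Of the 16 gene sums 13 were called, all as risen (DESeq2 called 1 more, as fallen), where 5.65% of 27203 gene sums rose and 4.68% fell. The 3 not called were the lumenal 29 kDa and 15 kDa proteins and CURVATURE THYLAKOID 1C. Fewer were called when a library was left out: 15 of the 25 transcripts without control 2, 10 without IPA 2 and 16 without IPA 3, and of the gene sums 5, 4 and 6. The median log2 change of the 25 was then 1.40, 1.21 and 1.16, and the calls over all transcripts were 1519, 1293 and 2502 in place of 6587. Calls over all gene sums with a library left out are not given here.

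The selection rule ended at a log2 change of 1 in the authors' deposited table. The members nearest to that bound there were oxygen-evolving enhancer protein 1 in TRINITY_DN39188_c0_g1 at 1.00, PsaK at 1.01, oxygen-evolving enhancer protein 3-2 at 1.01 and the carrier at 1.01. The same genes held 44 transcripts outside the selection. The authors' list held 0 transcripts without a description, so that a transcript can be outside it for want of a description as well as for a smaller change. On the limma scale, the largest change outside the selection was 1.42 ± 0.20, in the transcript of the carrier gene listed as DNA damage-binding protein 2. A minor PsbS transcript outside the selection had a log2 change of 1.23 ± 0.23 and one of PsaL 1.11 ± 0.23, each larger than that of several selected transcripts. Just below stood transcripts of PsaE at 0.97 ± 0.19 and 0.94 ± 0.19.

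Transcripts outside the selection were mixed by gene. All 6 of the photosystem genes PsaL, PsaE and PsbS were called as risen, and so were 6 of 19 of the carrier gene. In the gene of CURVATURE THYLAKOID 1C 0 of 9 were called, at log2 -0.73 to -0.06, and in that of the lumenal 15 kDa protein 1 of 7 was called as fallen, with values from -0.88 to 0.22. Over the 44, 12 rose and 1 fell, compared with 4.49% and 3.87% of all transcripts tested, and the median log2 change was 0.67. In 25 of the 44 every IPA library lay above every control library and in 4 below, compared with 16.6% and 16.3% of all transcripts tested. Leaving out control 2 gave 2 calls and leaving out control 3 gave 22, where 1519 and 10421 of all 78722 transcripts were called. Dropping a treated library gave 7 calls for IPA 1, 1 for IPA 2 and 1 for IPA 3, where 3570, 1293 and 2502 of all transcripts were called. Library totals in place of the authors' scaling gave 26, all risen, where 11817 of all transcripts were called and 84.1% of those rose.

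The lowest library of a group was mostly the same one across these genes, whereas the highest control library varied. The highest treated library was IPA 3 in 12 of the 16 gene sums. Among the 23 selected transcripts that were higher in IPA, control 1 was the lowest control library in 22, while it was the lowest in 40.2% of all transcripts tested. IPA 1 was the lowest treated library in 17 of the 23, against 36.3% of all transcripts. The 23 were chosen as higher in IPA, whereas all transcripts include those that were lower, so these shares are not a like background. Several of the 23 are transcripts of the same gene. Among the 16 gene sums, control 1 was the lowest control library in 13 and IPA 1 the lowest treated library in 14. The same libraries were mostly lowest among the listed antenna transcripts, control 1 in 39 of 43 and IPA 1 in 36 of 43. Control 1 also lay farthest from the IPA libraries on the first principal component of all transcripts (56.5% of the variance), at -129, with control 2 at -64.2 and control 3 at -28.3. The median deviation of the 16 gene sums from their control mean was -0.30, 0.14 and 0.18 log2 units for control 1, 2 and 3. For IPA 1, 2 and 3 it was 0.91, 1.20 and 1.13. Over all transcripts tested the same medians lay between -0.01 and 0.02. For control 1 the median was -0.48 over the 3 water-oxidation genes and -0.27 over the 7 photosystem I genes. Their ranges overlapped (-0.70 to -0.33 and -0.70 to -0.07), and the difference was not tested. Without control 1 the median log2 change of the 25 selected transcripts was 1.04. Of the 25, 24 were called, where 7233 of all 78722 transcripts were called.

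**Figure D3:**
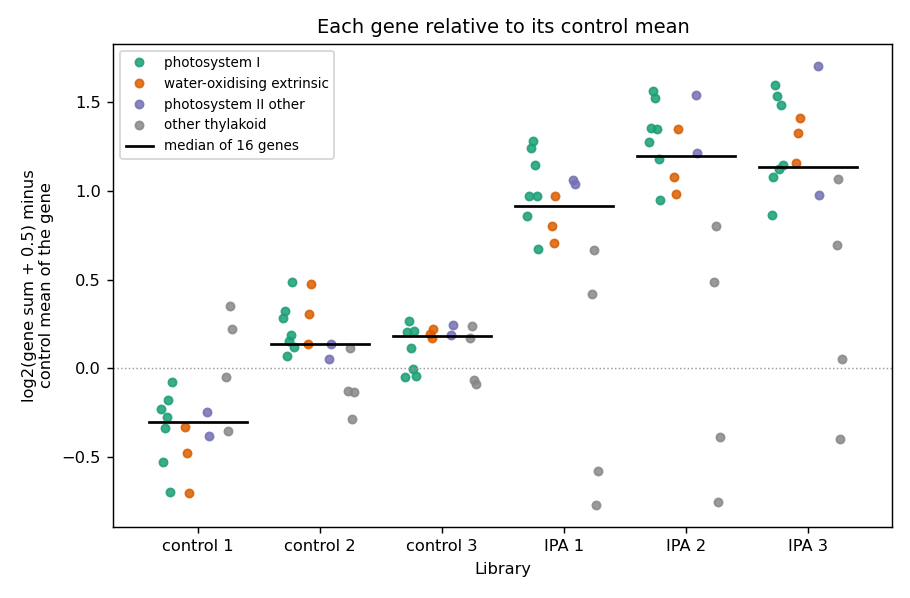
log2(gene sum + 0.5) of each gene minus its mean over the 3 control libraries, by library; points are genes, coloured by role group, and black bars are medians over the 16 genes. Control 1 has the lowest median, at -0.30, and the 3 IPA libraries have medians of 0.91 to 1.20, while the other thylakoid proteins scatter on both sides of 0.

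The replicates were closer to each other in IPA than in control. The coefficient of variation was larger in control than in IPA for 22 of the 25 selected transcripts, with medians of 19.5% and 11.4%. The same held for 67.6% of all transcripts tested, at medians of 25.2% and 16.9%. The 16 genes together held 0.103, 0.126 and 0.162% of the counts of control 1, 2 and 3, against 0.294, 0.335 and 0.354% of those of IPA 1, 2 and 3. Photosystem I genes took 0.0661 ± 0.0138% in control and 0.183 ± 0.0141% in IPA. The authors' list also held 5 transcripts described by names of yeast reading frames in ribosomal RNA loci (ART2, YLR154W-F and TAR1). These names were chosen after their values were seen. Their share moved the other way, from 21.3, 25.9 and 9.92% in control to 4.75, 6.12 and 3.97% in IPA. The 5 could enter only by differing in this contrast, and such transcripts outside the list were not counted. With the 5 left out of the totals, the 16 genes held 0.160 ± 0.0256% in control and 0.345 ± 0.0314% in IPA, and the groups still did not overlap. The part of this shift in the values per transcript was not tested.

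Other listed genes of the light reactions were read for comparison, all of them likewise known only from the authors' deposited table and therefore chosen by the same contrast. In that table the 43 antenna transcripts, of 18 genes of chlorophyll a-b binding proteins, were all higher, with a median log2 fold change of 2.38 and a range of 1.30 to 3.66. The 25 photosystem and thylakoid transcripts had a median of 1.25 and a highest value of 1.93 there. Among all 2586 listed rises the median was 1.42 and 501 reached a log2 of 2, which 0 of the 23 members did. Both sets passed the same threshold of selection, so the difference between them was not tested.

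Listed transcripts of plastid-encoded subunits had lower counts in IPA, as did the listed ribosomal RNA locus transcripts. The share of the latter spanned 9.92 to 25.9% within control alone. How evenly the mRNA library kit captured plastid and ribosomal RNA in each library was not tested. The P700 apoprotein A2 transcript with the higher counts stood at 4981, 7159 and 3662 in control and at 741, 978 and 647 in IPA. Within each group its order of libraries was that of the ribosomal RNA locus share. The other listed plastid-encoded transcripts of this list did not follow that order in both groups. Any link between these shifts was not tested. All 9 of 4 genes (CP47 and the D1 protein of photosystem II, the P700 apoprotein A2 of photosystem I and cytochrome f) were lower, with a median of -1.89 in the authors' deposited table. Most were transcripts of the single CP47 gene, which may share reads, and the median was the value of one of these. Limma called 6 as fallen and 3 not, where 3.87% of all transcripts tested fell. Those called were the CP47 transcripts and one of P700 apoprotein A2, and none of D1 or cytochrome f was called. The 3 listed transcripts of the alpha subunit of the chloroplast ATP synthase, also plastid-encoded, were lower at a median of -1.46 in the authors' deposited table, and limma called 1 of them. In the list for the NDH complex and cyclic electron flow, which pass electrons from the stroma back to the plastoquinone pool, 4 transcripts were higher and 2 lower in the authors' deposited table, and limma called 2 as risen. The 2 lower ones were subunit K and chain 4, which are plastid-encoded in plants, and the 4 higher ones included PROTON GRADIENT REGULATION 5 at means of only 0.21 in control and 0.58 in IPA, where 3 reads are worth up to 0.0954. The ferredoxin list matched 8 transcripts, of which 6 belong to ferredoxin--nitrite reductase, a nitrogen-assimilating enzyme rather than a part of the electron chain, and Ferredoxin C 2, at 0.74 and 0.30, was the member that was lower. State transition kinases matched 0 listed transcripts.

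**Figure D4:**
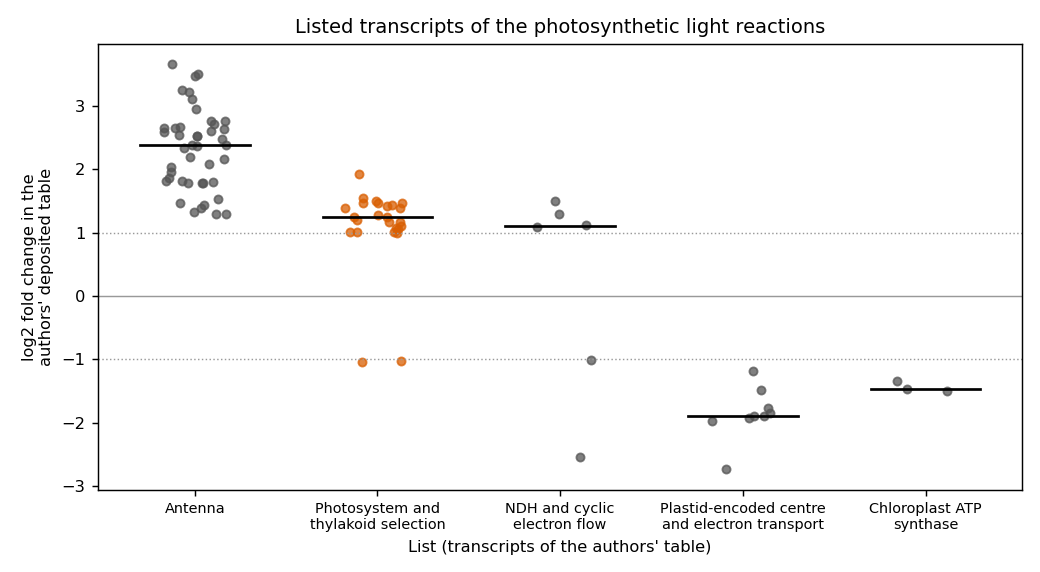
log2 fold change in the authors' deposited table for listed transcripts of 5 lists (points, spread sideways for legibility; black bars, medians; dotted lines, the bounds of the list at 1 and -1). Antenna transcripts have a median of 2.38, the photosystem and thylakoid selection 1.25 and the plastid-encoded list -1.89.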

How the data were processed

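Members and lists were chosen with earlier results of these data known. The authors deposited normalised read counts, a signal scaled per library; the submitters' processing notes name FastQC, Trimmomatic, BWA, featureCounts and edgeR, with versions and roles not given in the sources used here. Values were whole multiples of 1 read (100% within 0.01 reads), and 1 read was worth 0.0205 to 0.0318 units, so a floor of 3 reads lay at 0.0614 to 0.0954, covering counting error only. A second table deposited by the authors holds, per the file headers, FDR and p-value columns, the likelihood-ratio score, mean log2 CPM and log2 fold changes for 5093 transcripts; its descriptions chose the members. Columns of other samples numbered 0.

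A filter on the recovered reads (edgeR 4.0.16, filterByExpr, minimum count 10, minimum total 15) left out 3065 transcripts. The values, as log2(value + 0.5), were fitted over all transcripts, and over gene sums, with limma (3.58.1; trend, robust) in R 4.3.3. The step was tested on simulated data. edgeR's quasi-likelihood test on the recovered reads called 6476 transcripts and limma 6587. A gene was represented by its most abundant selected transcript. Values of every library were given for up to 5 genes a role group, and for every gene with a lower transcript or an uncalled sum. Alternatives were other scalings, pseudocounts, tests, filters, a replicate block and libraries left out. No sequences of the transcripts were used here.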

Additional observations from a re-analysis of the deposited data

How the results depend on the processing

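None of the 16 representative transcripts changed direction in the 14 alternatives run. The number of all transcripts called, 6587, was 11817 with library totals, which put the median log2 change of all transcripts at 0.25 instead of 0.02 and gave 84.1% rises against 53.7%, and 10358 with DESeq2; leaving out single libraries gave 1293 to 10421. Of the 25 selected transcripts 10 to 25 were called with a library left out, of the 44 others 1 to 22, and of the 16 gene sums 4 to 14; with library totals 26 of the 44 were called. The median log2 change of the 25 was 1.54 with library totals, and 1.04 to 1.40 without single libraries. Of 224 values of the 16 representative transcripts under alternatives, 184 kept and 40 lost their call. With a replicate block 4377 transcripts were called, 23 of the 25 (both lower ones lost their call), 7 of the 44 and 13 of the 16 gene sums. The labels do not say whether the numbers pair the samples. Correlations of deviations were -0.09, 0.08 and -0.13 for samples with the same number, and -0.09 to 0.13 for those with different numbers. Because the deviations were centred within each group, these correlations cannot decide whether samples were paired. The share of counts in the 16 genes, higher by 0.198 percentage points in IPA, was higher by 0.184 to 0.214 without single libraries and by 0.185 without the ribosomal RNA locus transcripts, an alternative chosen after seeing the data.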
